A study of Mus musculus with 15 samples.

Results

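Cytochrome P450 (Cyp) genes encode haem enzymes that insert an oxygen atom into small molecules. Members of families 1 to 4 act mainly on drugs, pollutants, fatty acids and eicosanoids, are most abundant in tissues such as liver, and often sit in tandem clusters of near-identical copies. The other families mostly make or break down steroid hormones, bile acids, cholesterol, vitamin D and retinoic acid.

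The set held every array feature whose gene name starts with Cyp followed by a number, a letter and a number. On the expression array the rule found 101 probes of 69 genes, of 29185 gene names, with 53 genes in families 1 to 4 and 16 in other families. On the promoter arrays it found 335 probes under 63 names, which formed 70 regions. A region was the probes of 1 transcript, split at gaps over 2000 bp, and needed at least 3 probes, which left 64 of 14529 tested regions, 50 of them in families 1 to 4. The 6 regions with too few probes included outlying parts of Cyp2b19, Cyp3a13, Cyp21a1 and Cyp2c70. The others were the part of Cyp2d26 nearest its start (462 bp) and the region named for Cyp1a2 alone. In all, 73 Cyp names were on one kind of array or the other.

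The series compared mouse embryonic stem (ES) cells of the line J1, which is wild type, with TKO, an ES cell line deficient in DNA methylation because Dnmt1, Dnmt3a and Dnmt3b, the genes of the DNA methyltransferases, are knocked out. Both lines were grown with the cytokine LIF and without feeder cells for 2 passages, and each genotype is represented by 1 line, so genotype and line cannot be told apart. For methylated DNA immunoprecipitation (MeDIP), which enriches methylated fragments with an antibody, 2 ug of DNA were used. The enriched DNA was read on 7 arrays of promoter design part 1 and 7 arrays of part 2, which hold different promoters, and RNA was read on 3 expression arrays, with both lines on every array. The 7 MeDIP replicates came from different passages. The 3 RNA arrays were deposited as 1 sample, from the same cultures per the study's text, and whether they share RNA is not stated, so n counts arrays and p-values measure the spread between arrays.

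Several facts about the arrays bear on every value. RNA ratios are log2(TKO/J1), so that 1 is a 2-fold difference. Replicate 2 was the dye swap, and its sign was turned. The labels leave the dye order of the RNA arrays open, and J1 in Cy5 on replicates 1 and 3 was taken as the likely order. In that order the targeted genes were lower in TKO, Dnmt1 by a log2 ratio of -1.07 ± 0.25 (SD, n = 2 arrays), Dnmt3a at -2.36 ± 0.18 (n = 2) and Dnmt3b at -2.50 ± 0.19 (n = 3). Replicate 3 was the weakest RNA array. It had 39.6% of probes above background in J1 and 38.6% in TKO, against 52.4% to 66.8% on the others, and 8386 of its spots were left out as uneven, against 11 and 57. MeDIP ratios are log2 of the channel labelled J1 over the channel labelled TKO. J1 was labelled with the same dye on all 14 of these arrays, so dye and line cannot be told apart. A line without these enzymes has little methylated DNA to pull down, and yet the promoters of the germ cell genes Asz1 and Dppa3 had ratios of -0.65 and -0.72, on the labelled TKO side. The sides are therefore named by the labels only.

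The sequences upstream of 5 Cyp starts show how unlike these promoters are in their content of CG dinucleotides, the sites of DNA methylation in mammals. Each is the 250 bases before the annotated start in RefSeq (GRCm38.p6), 5′ to 3′ on the strand of the gene, with CG in capitals. Cyp2d9, a testosterone hydroxylase of male liver, stands for the Cyp2d cluster, which holds the lowest single region of the set (1 CG, chr15:82452127-82452376, plus strand). Cyp4f13, of a subfamily that hydroxylates long-chain fatty acids and eicosanoids, had less RNA in TKO (3 CG, chr17:32947362-32947611, minus strand). Cyp1b1 oxidises oestrogens and polycyclic hydrocarbons and is induced through the aryl hydrocarbon receptor. Its RNA was above background at 1 of 2 probes, on 2 TKO arrays and no J1 array (12 CG, chr17:79715062-79715311, minus strand). Cyp4v3, a fatty acid hydroxylase of the eye, had one of the highest MeDIP ratios of the set (17 CG, chr8:45333164-45333413, minus strand).
Cyp2d9: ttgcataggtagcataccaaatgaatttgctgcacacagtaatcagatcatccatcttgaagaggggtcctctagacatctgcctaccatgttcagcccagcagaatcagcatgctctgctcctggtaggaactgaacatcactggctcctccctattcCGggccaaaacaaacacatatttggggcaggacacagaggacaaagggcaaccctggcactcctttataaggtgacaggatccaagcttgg
Cyp4f13: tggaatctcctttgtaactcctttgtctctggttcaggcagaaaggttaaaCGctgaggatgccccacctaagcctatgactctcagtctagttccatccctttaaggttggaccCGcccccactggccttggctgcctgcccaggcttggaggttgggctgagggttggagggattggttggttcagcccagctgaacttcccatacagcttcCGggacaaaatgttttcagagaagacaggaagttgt
Cyp1b1: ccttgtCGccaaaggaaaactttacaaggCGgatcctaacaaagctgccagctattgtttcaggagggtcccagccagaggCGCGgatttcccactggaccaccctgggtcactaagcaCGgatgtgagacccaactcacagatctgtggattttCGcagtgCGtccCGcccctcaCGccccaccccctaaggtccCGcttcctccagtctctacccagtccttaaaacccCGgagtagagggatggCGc
Cyp4v3: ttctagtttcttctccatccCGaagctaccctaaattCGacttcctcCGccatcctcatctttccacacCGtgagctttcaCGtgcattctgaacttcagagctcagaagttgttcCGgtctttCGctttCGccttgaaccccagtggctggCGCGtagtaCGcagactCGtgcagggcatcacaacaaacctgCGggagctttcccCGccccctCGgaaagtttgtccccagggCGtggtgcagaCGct

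Cyp26a1, which breaks down retinoic acid, is shown for another element, with 20 CG in the window (chr19:37697558-37697807, plus strand). Capitals mark its match to the direct repeat form of the retinoic acid response element with 5 spacer bases (DR5), searched as a repeat of 6 fixed letters on both strands. It lay on the opposite strand, 32 to 16 bases before the start.
Cyp26a1: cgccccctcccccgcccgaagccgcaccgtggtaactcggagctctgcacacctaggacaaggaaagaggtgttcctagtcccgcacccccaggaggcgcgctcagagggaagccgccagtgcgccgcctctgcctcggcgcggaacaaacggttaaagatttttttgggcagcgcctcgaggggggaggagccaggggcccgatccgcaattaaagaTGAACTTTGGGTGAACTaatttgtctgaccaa

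Over a window of 300 bases, which adds 50 bases after the start, 46 of the 64 regions could be matched to RefSeq (45 genes, 54 windows). The median Cyp window held 2.5 CG, against 7 over all 32851 windows, and 27 of 54 Cyp windows held at most 2, against 23.3% of all windows. A TATAAA box on either strand was found in 38.9% of Cyp windows and 13.6% of all. GCGTG, the core letters bound by the aryl hydrocarbon receptor, was found on either strand in 18.5% of Cyp windows and 32.4% of all, and the windows of Cyp1b1 and Cyp4v3 hold it. These letters themselves contain a CG. The DR5 element was found in 1 of 54 Cyp windows (1.85%), that of Cyp26a1, and in 8 of all 32851 (0.0244%).

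Most Cyp genes were at or near the background of the expression arrays in both lines. A gene counted as measured when a probe was well above background in J1 or in TKO on all 3 arrays. That held for 11 of 69 Cyp genes (15.9%), against 42.6% of all genes. In families 1 to 4 it held for 6 of 53 genes (11.3%), and in the other families for 5 of 16 (31.2%). The share was thus lower in the drug and fatty acid families, and these shares are a description with no test. At the other end, 27 Cyp genes (39.1%, against 31% of all genes) were not above background on any array in either line. They were 22 genes of families 1 to 4, among them Cyp1a2, Cyp2a5, Cyp2b9 and Cyp3a11, drug-oxidising enzymes of mouse liver, and 5 of other families. The 5 were Cyp7a1, the rate-limiting enzyme of bile acid synthesis, Cyp8b1, which shapes bile acids after it, Cyp11b2, the aldosterone synthase, Cyp19a1, the aromatase that makes oestrogens, and Cyp24a1, which inactivates vitamin D. In bulk RNA, fewer cells of a type and less RNA per cell cannot be told apart.

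Between these ends lay 31 genes that only some arrays detected. Cyp1b1 was above background in TKO on 2 arrays and in J1 on none. Cyp1a1, the classic target of the aryl hydrocarbon receptor, and Cyp27a1, a mitochondrial sterol hydroxylase, were above background on 1 TKO array each and on no J1 array. Over the set, J1 was above background for 32, 27 and 11 genes on replicates 1, 2 and 3, and TKO for 41, 18 and 13. The line with more detected genes differed between arrays, and so did the share of all probes above background.

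**Figure D1:**
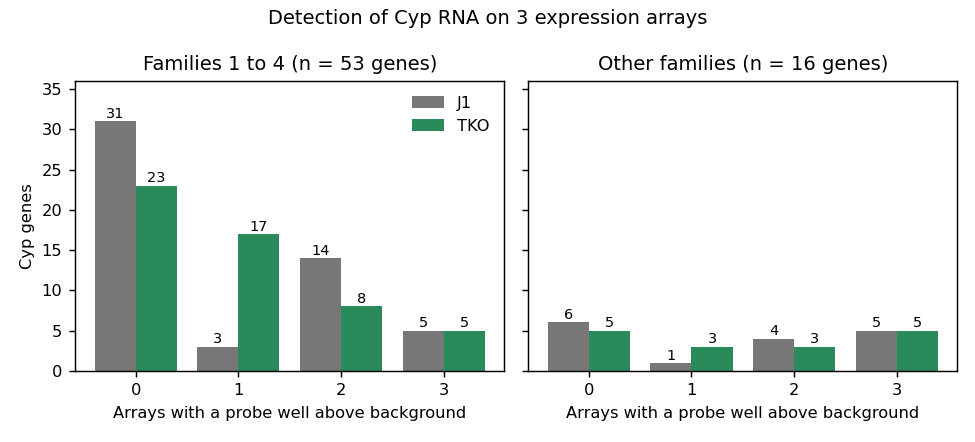
Number of Cyp genes (vertical axis) by the number of expression arrays, 0 to 3, on which a probe was well above background (horizontal axis), for J1 and TKO, with families 1 to 4 (53 genes) and other families (16 genes) apart. In families 1 to 4 the tallest bars stand at 0 arrays (31 genes in J1, 23 in TKO), and 5 genes reached all 3 arrays in each line.

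Of the 11 measured Cyp genes, 2 had more RNA in TKO (Cyp11a1 and Cyp4f14), 2 had less (Cyp4f13 and Cyp39a1) and 7 did not pass the test (limma, Benjamini-Hochberg adjusted p under 0.05 over 12421 genes). Over all genes tested, 16.9% passed as higher and 15.9% as lower, 32.8% in all, so the Cyp count of 4 of 11 is near that background. The balance of directions over all genes depends on the scaling, since 51.5% of calls were higher as fitted and 33.5% with arrays centred on their median in place of loess. The median of the 11 genes was 0.04, and that of all genes tested -0.01, or -0.10 with median centring.

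Among the steroid hormone enzymes, Cyp11a1 had the largest change of the 11 measured Cyp genes. It cleaves the side chain of cholesterol in mitochondria, the first step of steroid hormone synthesis. Its TKO/J1 ratios were 0.65, 0.43 and 0.64 on replicates 1, 2 and 3. All 3 arrays lay above 0, with a mean of 0.57 ± 0.12 (SD, n = 3, adjusted p = 0.000916, limma). The other probe of the gene gave 0.76, 0.46 and 0.43. With the scanner software's own processed signals the mean was 1.47, and the authors' deposited table gives 1.46, while with median centring it was 0.50 and no longer passed (adjusted p = 0.145, limma). Cyp17a1, which turns pregnenolone and progesterone towards androgens, was above background on 2 arrays in each line, with ratios of -0.04, -0.08 and -0.11. Of its neighbours in the pathway, 7 of 15 listed genes were measured. Star, which carries cholesterol to Cyp11a1, rose by 0.41 ± 0.07 (adjusted p = 0.00399, limma), and Nr0b1, a repressor of steroidogenic genes that ES cells also express, fell by 1.55 ± 0.22 (adjusted p = 6.82e-06, limma), in 3 of 3 arrays each.

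Among the enzymes of bile acids and cholesterol, Cyp39a1 had less RNA in TKO. It hydroxylates oxysterols on a side path of bile acid synthesis. Its ratios were -0.35, -0.21 and -0.22. All 3 arrays lay below 0, with a mean of -0.26 ± 0.08 (SD, n = 3, adjusted p = 0.0347, limma). The call was lost without any single array (adjusted p from 0.0705 without replicate 3 to 0.153 without replicate 1, limma), with median centring (adjusted p = 0.354, limma) and with a dye term (adjusted p = 0.0797, limma). The mean was -0.58 with the processed signals and -0.55 in the authors' deposited table. The other probe of the gene gave -0.09, -0.36 and -0.13. Cyp46a1, the cholesterol hydroxylase of neurons, had ratios of 0.01, 0.09 and 0.15 and did not pass (adjusted p = 0.459, limma). Cyp7b1, another oxysterol hydroxylase, was above background on 2 arrays in each line, with ratios of 0.09, 0.11 and 0.20. Cyp51 lies outside the naming rule and makes cholesterol from lanosterol. It was measured on all arrays at -0.07 ± 0.27 and did not pass (adjusted p = 0.658, limma). Of the 23 listed genes of cholesterol synthesis and its control, 22 were measured, of which 2 rose and 4 fell, with a median of -0.11. Srebf1, which switches on lipid synthesis, fell by 0.58 ± 0.14 (adjusted p = 0.000979, limma), Fdft1, the squalene synthase, fell by 0.55 ± 0.34 (adjusted p = 0.00651, limma), and Hsd17b7, a later enzyme of the path, rose by 0.49 ± 0.06 (n = 2, adjusted p = 0.00725, limma).

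Of the enzymes that break down retinoic acid, Cyp26b1 was above background on all arrays in both lines. Its ratios were -0.07, 0.19 and 0.00, on both sides of 0, with a mean of 0.04 ± 0.14 (adjusted p = 0.739, limma). Cyp26a1 was above background on 2 arrays in each line, so it was outside the test on all 3 arrays. Its ratios were 0.85, 0.59 and 0.40, above 0 on every array. With a filter of 2 of 3 arrays, chosen after the data were seen, Cyp26a1 had a mean of 0.61 ± 0.22 (SD, n = 3) and passed (adjusted p = 0.00349, limma). Of the 17 genes of the retinoic acid list, 11 were measured, of which 4 rose and 2 fell, with a median of 0.07. Rbp4, the retinol carrier of blood and visceral endoderm, rose by 1.61 ± 0.24 (n = 3, adjusted p = 6.82e-06, limma). Aldh1a3, which makes retinoic acid, fell by 0.49 ± 0.14 (n = 2, adjusted p = 0.00872, limma). It was above background on 3 J1 arrays and 1 TKO array, and 3 of the 6 called genes of this list entered the test only through the line where they were higher.

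The vitamin D enzymes were dim. Cyp27b1, which activates vitamin D, had ratios of -0.07, -0.02 and 0.01 with detection on 2 J1 arrays and 1 TKO array. Cyp2r1, which makes its precursor, and Cyp24a1 were not above background on any array. Of the 6 listed genes of the pathway 3 were measured, and Rxra, the partner of many nuclear receptors, rose by 0.32 ± 0.19 (n = 3, adjusted p = 0.026, limma).

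In families 1 to 4, neighbours of the Cyp4f cluster on chromosome 17 moved in opposite directions. Cyp4f13 had ratios of -0.35, -0.51 and -0.50. All 3 arrays lay below 0, with a mean of -0.45 ± 0.09 (SD, n = 3, adjusted p = 0.00272, limma), and it was the 1 Cyp gene that passed under every alternative run, from -0.42 to -0.63. Cyp4f14, which hydroxylates leukotrienes, had ratios of 0.34, 0.11 and 0.41. All 3 arrays lay above 0, with a mean of 0.28 ± 0.15 (SD, n = 3, adjusted p = 0.0345, limma). This call was lost with median centring, with a dye term, with no filter on dim probes, and without replicate 1 or replicate 3 (adjusted p = 0.134 and 0.149, limma), while the authors' deposited table gives 0.81. Cyp4f16, detected on 2 arrays in each line, had ratios of -0.33 and -0.15, its spot on replicate 3 being left out as uneven. Signal from near-identical Cyp4f copies that bind 1 probe cannot be told apart.

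The other measured genes of these families did not pass. Cyp2c44, an epoxygenase of arachidonic acid, had ratios of -0.44, -0.17 and -0.13, with a mean of -0.25 ± 0.17 (adjusted p = 0.0588, limma). With the processed signals it did pass, at -0.55 (adjusted p = 0.0035, limma). Cyp2s1, an epithelial enzyme, had ratios of 0.06 and 0.01 on the 2 arrays kept. Cyp2c55, of the same subfamily as Cyp2c44, had -0.02, 0.06 and 0.13, and Cyp4x1, whose substrates are little known, had -0.16, 0.08 and 0.15. Cyp20a1, an orphan enzyme of another family, had 0.21, 0.12 and -0.19. The arrays of these last genes lay on both sides of 0, and the sign of the mean of Cyp4x1, Cyp20a1 and Cyp26b1 turned with median centring. Cyp1b1 had ratios of 0.19, 0.26 and 0.09 on the probe that was detected. The mean signal of that probe was at least 1.13-fold higher in TKO. This bound was taken against the higher of its own J1 signal and the dimmest signal well above background. The other probe of Cyp1b1, above background on no array, gave -0.02, 0.01 and 0. With the filter of 2 of 3 arrays Cyp1b1 did not pass (adjusted p = 0.0955, limma). It entered that test only through TKO, the line with the higher signal.

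That wider filter brought the number of Cyp genes tested to 29 of 17302 genes, of which 29.2% passed. It gave 3 higher and 3 lower Cyp genes. Beside the 4 already named these were Cyp26a1 and Cyp2j6, an epoxygenase of fatty acids, which had ratios of -0.36, -0.24 and -0.31, a mean of -0.30 ± 0.06 (SD, n = 3) and an adjusted p of 0.0147 (limma). Cyp2j6 was above background on 2 J1 arrays and 1 TKO array, so it entered this test only through J1, the line with the higher signal. The other Cyp2j genes detected on 2 arrays had means on the same side without passing, Cyp2j9 at -0.29 ± 0.25 (adjusted p = 0.0654, limma) and Cyp2j13, which also entered through J1 only, at -0.20 ± 0.08 (adjusted p = 0.0681, limma).

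**Figure D2:**
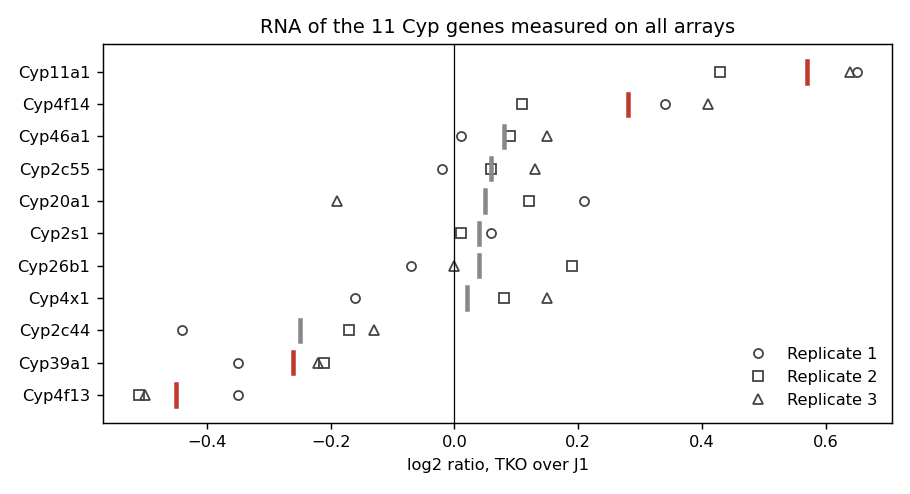
RNA log2 ratio of TKO over J1 (horizontal axis) for the 11 measured Cyp genes (vertical axis). Symbols are the 3 arrays, and the bar is their mean, red where the adjusted p was under 0.05. Cyp11a1 stands highest at 0.57 and Cyp4f13 lowest at -0.45, with no array of either across 0.

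Between the family groups there was little to separate RNA ratios. The median of the 6 measured genes of families 1 to 4 was 0.03, and that of the 5 genes of other families 0.05. The difference of medians was -0.10, -0.08 and 0.13 on the 3 arrays, a mean of -0.02 ± 0.13 (SD, n = 3), smaller than its spread over arrays. It was -0.09 ± 0.01 without replicate 3 (n = 2 arrays) and -0.12 ± 0.06 with the filter of 2 of 3 arrays, both larger than their spread. In the other runs it was smaller than its spread. Among these it was 0.04 ± 0.13 without replicate 1, 0.01 ± 0.30 with median centring and -0.01 ± 0.03 with no filter on dim probes.

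P450 enzymes depend on partners that hand them electrons. Each count of a list is to be read against the 16.9% of all tested genes that rose and the 15.9% that fell. All 8 listed electron donors were measured, of which 1 rose and 2 fell. Por, the reductase that feeds every microsomal P450, had ratios of 0.00, 0.03 and -0.08. Fdx1, the ferredoxin that feeds Cyp11a1 and the other mitochondrial enzymes, rose by 0.53 ± 0.14 (n = 3, adjusted p = 0.00164, limma). Cyb5a, a microsomal electron carrier, fell by 0.61 ± 0.28 (n = 2, adjusted p = 0.00584, limma), and Pgrmc1, a haem-binding P450 partner, fell by 0.32 ± 0.22 (n = 3, adjusted p = 0.0311, limma). Of 13 genes of haem synthesis and breakdown, 10 were measured, of which 5 rose and 1 fell, with a median of 0.18, and with median centring 2 of these calls, Hmox1 and Urod, were kept. Those with the largest change were Hmox1, the inducible enzyme that degrades haem, at 1.31 ± 0.21 (n = 2, adjusted p = 8.16e-05, limma), Alad, an early enzyme of synthesis, at 0.66 ± 0.14 (n = 3), and Blvra, which reduces biliverdin, at 0.57 ± 0.11 (n = 3).

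The regulators and the downstream enzymes were mixed. Of 17 receptors and liver factors, 7 were measured, of which 3 rose and 2 fell. Nr1i2 and Nr1h4, the receptors for drugs and bile acids, were not above background on any array. Nr5a2, an activator of Cyp7a1 that ES cells also use, fell by 0.53 ± 0.10 (n = 2, adjusted p = 0.00561, limma). Ahrr, a repressor of the aryl hydrocarbon receptor, rose by 0.39 ± 0.07 (n = 3, adjusted p = 0.00539, limma) and Cebpa, a liver and fat factor, by 0.36 ± 0.20 (n = 3, adjusted p = 0.016, limma). Of 23 conjugation and hydrolysis enzymes, 12 were measured, of which 4 rose and 2 fell. Ephx2, which opens the epoxides that Cyp2c and Cyp2j enzymes make, fell by 2.30 ± 0.24 (n = 3, adjusted p = 1.25e-06, limma). Gsta4, which conjugates lipid aldehydes, fell by 0.87 ± 0.11 (n = 3), and Nat2, an acetyltransferase, rose by 0.70 ± 0.21 (n = 3). Of 9 eicosanoid genes 7 were measured, of which 3 rose and 1 fell. Ptges, a prostaglandin synthase, rose by 1.07 ± 0.14 (n = 3), Ptgs2, the inducible cyclooxygenase, rose by 0.56 ± 0.13 (n = 3) and entered the test only through TKO (2 J1 arrays above background), and Ptgis, the prostacyclin synthase, fell by 0.55 ± 0.04 (n = 2). The 38 called genes of the 9 pathway lists kept their sign with processed signals, with median centring and with a dye term, and 36, 10 and 33 of them still passed. With median centring the 10 included Ephx2, Gsta4, Fdft1, Srebf1, Nr0b1, Hmox1, Rbp4, Ptges and Urod, a haem synthesis enzyme, and the other list genes named here did not pass. With processed signals, 11 of the 38 changes were over 1.5 times as large, among them Ptgs2 (1.69), Aldh1a3 (-1.69), Ahrr (1.13), Star (1.03), Cebpa (0.99) and Nat2 (1.18).

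Markers of several cell types, among them those of tissues rich in P450 enzymes, were compared between the lines. Of 13 hepatocyte and visceral endoderm markers, 9 were measured and all 9 rose in TKO, with a median of 1.61. Of these, 4 (Afp, Apoa1, Apob and Ttr) entered the test only through TKO, the line where they were higher, so the count is partly set by the filter. Alb, Fga and Serpina1b were not above background on any array. The summed signal of this list over 10 genes was 1021 to 1303 in J1 and 2728 to 3588 in TKO. All 8 measured primitive endoderm markers rose (845 to 1286 in J1, 2429 to 3036 in TKO over 7 genes), and so did 6 of 7 measured trophoblast markers (5787 to 8106 and 29674 to 43572 over 11 genes). These 6 were Krt8, Krt18, Krt19, Prl3d1, Prl4a1 and Plac1. Tfap2c did not pass, and Cdx2, Eomes, Elf5, Hand1, Gcm1 and Ascl2 of the 13 listed trophoblast genes were not measured. Trophoblast giant cells also express Cyp11a1. Of 6 measured fibroblast markers 2 rose and 1 fell, and of 9 ES cell markers 2 rose and 4 fell. The summed signal of the fibroblast list was 1282 to 1763 in J1 and 1571 to 1952 in TKO over 7 genes. For the ES cell list it was 51253 to 77322 in J1 and 68558 to 107742 in TKO over 4 genes. Prl4a1 of the trophoblast list also entered only through TKO. No called marker turned sign with processed signals, median centring or a dye term. With median centring 8 of 9 hepatocyte and visceral endoderm calls, 7 of 8 primitive endoderm calls, 6 of 6 trophoblast calls, 1 of 3 fibroblast calls and 3 of 6 ES cell calls still passed. The part of these cell types in the Cyp results was not tested.

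On the promoter arrays most Cyp regions lay close to 0, and the few called were on the labelled TKO side, as were most calls over all regions. A region was called when its adjusted p was under 0.05 (limma, over both parts) and its mean at least 0.5 from 0. That held for 3 of 64 Cyp regions on the labelled TKO side, where 2.63% of all regions were called. Of the 394 calls over all regions, 382 were on this side. No Cyp region was called on the labelled J1 side (0.0826% of all regions), where the highest mean was 0.29. At an unadjusted p under 0.05 and any size, 30 Cyp regions had a mean below 0 (33.3% of all regions) and 11 a mean above 0 (28.7% of all regions, limma). With an adjusted p under 0.05 at any size 27 Cyp regions lay below 0 (31.0% of all regions) and 10 above 0 (25.6% of all regions). In all, 44 of 64 Cyp regions had a mean below 0 (68.8%), against 50.8% of all regions, and their median was -0.09, against 0.

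The called regions belonged to Cyp2d13, a member of the liver Cyp2d cluster, and to Cyp11b2, both on chromosome 15 and neither with RNA above background on any array. The first Cyp2d13 region ranged from -1.17 to -0.47 over 7 arrays, with a median of -0.90 and a mean of -0.85 ± 0.24 (SD, n = 7, adjusted p = 1.25e-05, limma). The second ranged from -0.74 to -0.26, with a median of -0.63 and a mean of -0.57 ± 0.16 (SD, n = 7, adjusted p = 1.77e-05, limma). Cyp11b2 ranged from -0.95 to -0.36, with a median of -0.49 and a mean of -0.58 ± 0.21 (SD, n = 7, adjusted p = 4.71e-05, limma). Every array of these regions lay below 0. The regions of Cyp2d13 are 1 transcript placed at 2 loci over 2000 bp apart, and probes to near-identical copies may share DNA, so they are not independent. From the mean signals with normexp, without the scanner's dye normalisation, the means were -0.41, -0.45 and -0.33 and none reached 0.5, and with only probes above background in both channels Cyp11b2 was at -0.42 and was not called.

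Within these regions the probes were uneven. In the first Cyp2d13 region the probes at -512 and -252 bp from the start had ratios of -1.47 ± 0.42 and -1.53 ± 0.49, while that at -879 bp had -0.09 ± 0.21 (SD, n = 7 arrays each). In the second region the probe at -16 bp had -1.39 ± 0.33 and that at -516 bp had -0.04 ± 0.33. In Cyp11b2 the probe at -414 bp had -1.19 ± 0.32 and that at -615 bp had -0.11 ± 0.39. With the median over probes in place of the mean, the regions were at -0.86, -0.60 and -0.53 and were still called.

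**Figure D3:**
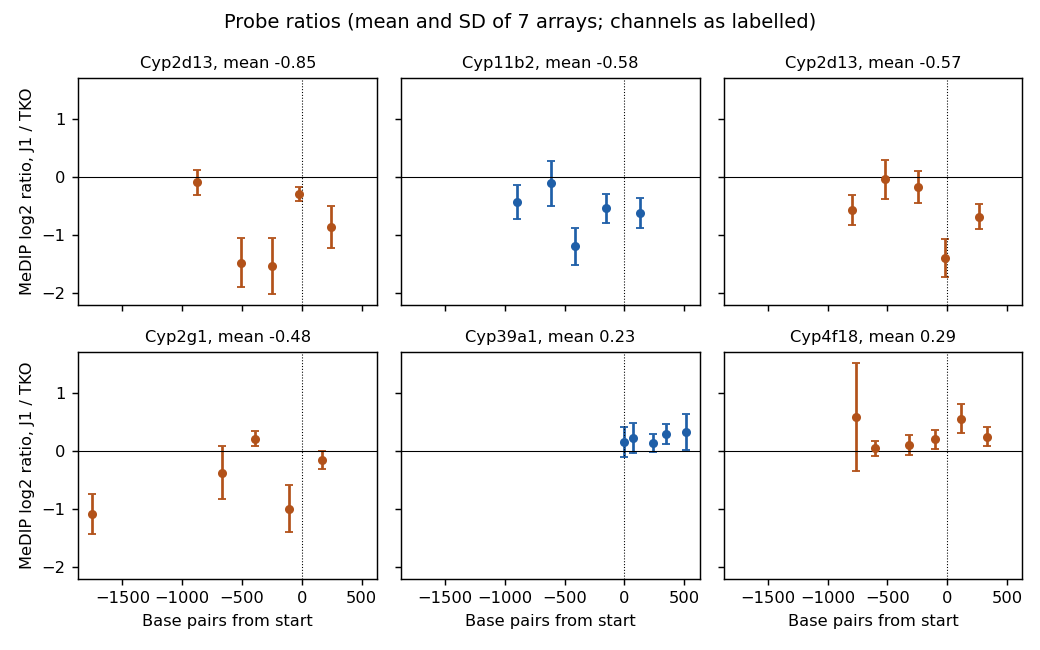
MeDIP log2 ratio of each probe, labelled J1 over labelled TKO (vertical axis), by base pairs from the annotated start (horizontal axis), for both Cyp2d13 regions, Cyp11b2, Cyp2g1, Cyp39a1 and Cyp4f18. Points are means and bars SDs of 7 arrays, and the lowest probes reach -1.53 in Cyp2d13, while those of Cyp39a1 run evenly from 0.14 to 0.33.

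Just inside the size limit stood Cyp2d13 at -0.57, and just outside it Cyp2g1, an enzyme of olfactory mucosa, at -0.48 ± 0.13 (-0.69 to -0.37 over arrays). Cyp2g1 was called, at -0.50, when arrays were centred on the mode. Next came Cyp2d26, of the Cyp2d cluster, at -0.46 ± 0.13 (-0.62 to -0.28). Its probes lay between -5410 and -2663 bp from the start, so this value does not describe the start itself. Cyp7a1 was at -0.44 ± 0.17 (-0.73 to -0.22). These regions lay below 0 on every array. Cyp2c40, an arachidonic acid hydroxylase, was at -0.42 ± 0.35 (-1.04 to 0), and at 0.07 from the mean signals with normexp and median centring, which changes the background and the dye normalisation together.

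On the labelled J1 side the highest regions were Cyp4f18, a leukotriene hydroxylase of neutrophils, at 0.29 ± 0.18 (0.08 to 0.53 over arrays), Cyp4v3 at 0.24 ± 0.08 (0.10 to 0.34), Cyp39a1 at 0.23 ± 0.11 (0.01 to 0.36) and Cyp7b1 at 0.19 ± 0.17 (0.02 to 0.48). All lay above 0 on every array, and all were under the size limit. Cyp4f18 and Cyp4v3 are on chromosome 8, where the median of all 751 regions was 0.10, against 0 over all chromosomes, so both stood above their own chromosome by less than their ratio shows. Lower on this side, Cyp1b1 was at 0.15 ± 0.12 and Cyp2s1 at 0.10 ± 0.05.

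The other enzymes of hormones and vitamins had smaller ratios. Cyp2r1 was at -0.25 ± 0.16, with no array above 0 (adjusted p = 0.00194, limma). Cyp17a1 was at -0.15 ± 0.08, Cyp19a1 at -0.14 ± 0.05, Cyp11a1 at -0.14 ± 0.10, Cyp26b1 at -0.14 ± 0.12 and Cyp26a1 at 0.05 ± 0.10 (SD, n = 7 arrays each). All of these but Cyp26a1 had an adjusted p under 0.05 without reaching the size limit (limma). In Cyp26a1 the probe at 197 bp after the start had 0.43 ± 0.14, and the 4 probes before the start had -0.23 to 0.08. The region shared by Cyp1a1 and Cyp1a2 was at -0.01 ± 0.04.

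**Figure D4:**
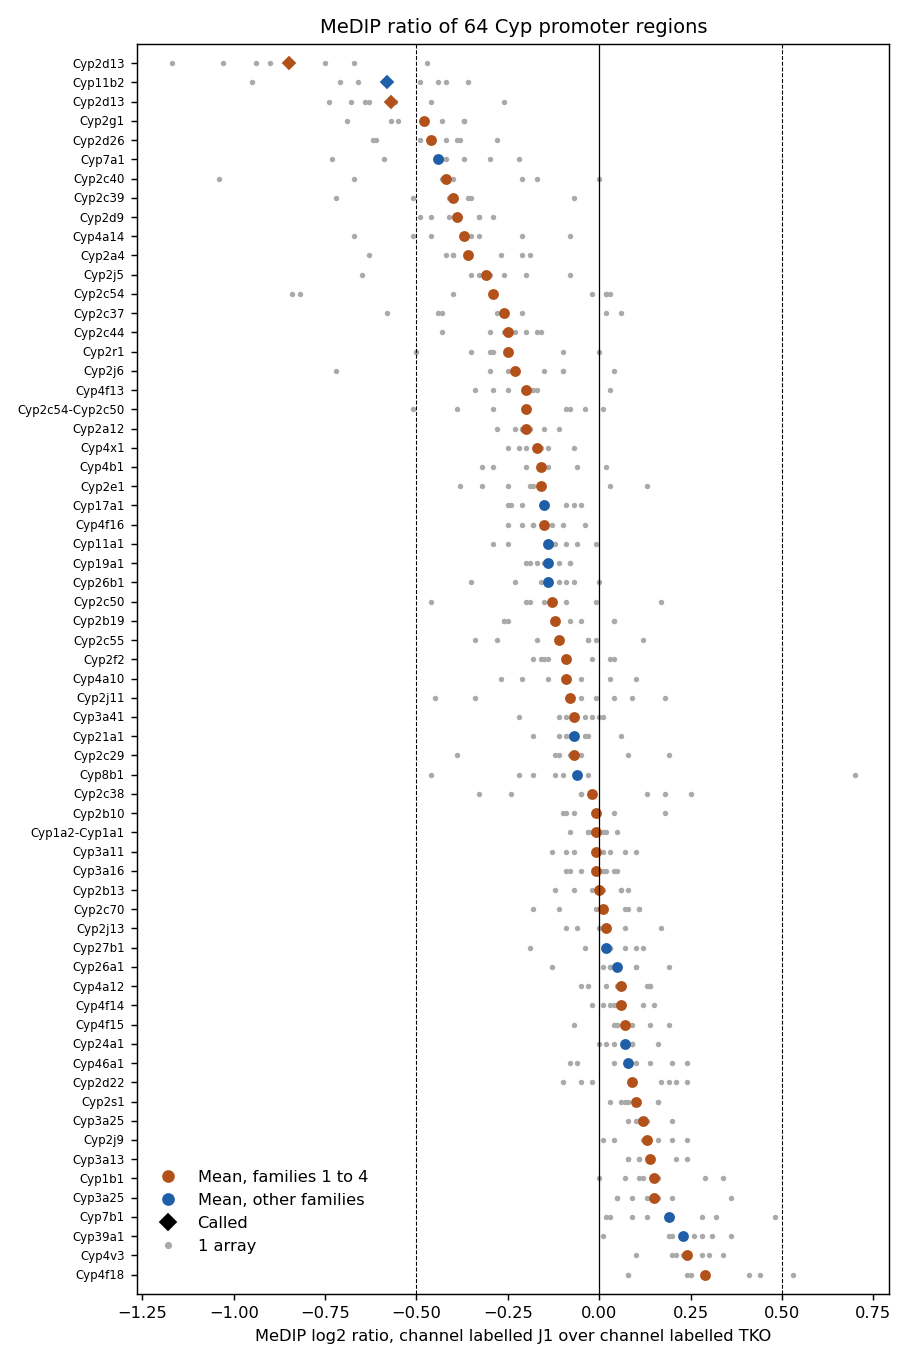
MeDIP log2 ratio, labelled J1 over labelled TKO (horizontal axis), of the 64 tested Cyp regions in order of their mean (vertical axis). Grey points are the 7 arrays, coloured symbols the means by family group, diamonds the called regions, and dashed lines the size limit of 0.5. The called regions of Cyp2d13 and Cyp11b2 stand at -0.85 to -0.57, and no mean exceeds 0.29 on the labelled J1 side.

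Described by gene cluster, with no test, the 5 Cyp2d regions on chromosome 15 had a median of -0.46, with 4 below 0, while Cyp2d22 stood at 0.09. The 11 Cyp2c regions on chromosome 19 had a median of -0.20, with 10 below 0. The 6 Cyp3a regions on chromosome 5 had a median of 0.05, within -0.07 to 0.15. Over all regions, chromosomes 15 and 19 had medians of -0.02 and -0.01. Copies in a cluster are similar in sequence, so these regions are not independent. Cyp2c54 split by array, with ratios of -0.40, -0.82 and -0.84 on replicates 1, 2 and 3 and of -0.02 to 0.03 on replicates 4 to 7, and it did not pass (adjusted p = 0.0521, limma). Its mean of -0.29 ± 0.40 thus describes neither set of arrays. Cyp2c37 was also lower on replicates 1 to 3 (-0.58, -0.43 and -0.44) than on replicates 4 to 7 (-0.28 to 0.06). Cyp2c44 lay below 0 on every array (-0.43 to -0.16). Not all probe readings were above background in the labelled J1 and TKO channels. For Cyp2c37 60% and 65.7% were, and for Cyp2c54 76.2% and 90.5%.

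Families 1 to 4 and the rest were close to each other on the promoter arrays. The 50 regions of families 1 to 4 had a median of -0.10 and the 14 others -0.06. On part 1 the difference of medians averaged -0.01 ± 0.06 (SD, n = 7 arrays) and on part 2 -0.06 ± 0.09 (n = 7), with 5 of 7 arrays below 0 on each part, and neither mean exceeded its spread over arrays. With only probes above background in both channels the part 1 difference was -0.11 ± 0.05, larger than its spread.

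Over all matched promoters the median MeDIP ratio differed between classes of CG content, and the Cyp set is poor in CG. Whether CG content bears on the Cyp ratios was not tested. Over all matched promoters the median ratio was -0.15 with up to 2 CG in 300 bases, -0.15 with over 2 to 5, -0.06 with over 5 to 10 and 0.04 above that. The Cyp regions in the same classes had medians of -0.08 (n = 24), -0.08 (n = 13), -0.14 (n = 3) and 0.09 (n = 6). In the classes of up to 2 and of over 2 to 5 CG the matched Cyp regions thus lay above the median of all matched promoters. Over all classes the 46 matched Cyp regions had a median of -0.07, against 0 for all matched promoters. The 64 tested Cyp regions also lay below the median of all regions. Regions without a match include low ones (Cyp2d13, Cyp11b2, Cyp2g1, Cyp7a1) and high ones (Cyp39a1, Cyp7b1), so the classes describe the matched regions only. Of the promoters shown by sequence, Cyp2d9 (1 CG in 300 bases) was at -0.39 ± 0.07 and Cyp4f13 (6 CG) at -0.20 ± 0.12. Cyp1b1 (16 CG) was at 0.15 ± 0.12, Cyp4v3 (17 CG) at 0.24 ± 0.08 and Cyp26a1 (26 CG) at 0.05 ± 0.10. Cyp4v3 is on chromosome 8, where all regions had a median of 0.10. Single regions also went against the order of the classes, such as Cyp2r1 (22 CG) at -0.25 ± 0.16 and Cyp3a13 (1 CG) at 0.14 ± 0.06. The called regions are not among those matched.

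**Figure D5:**
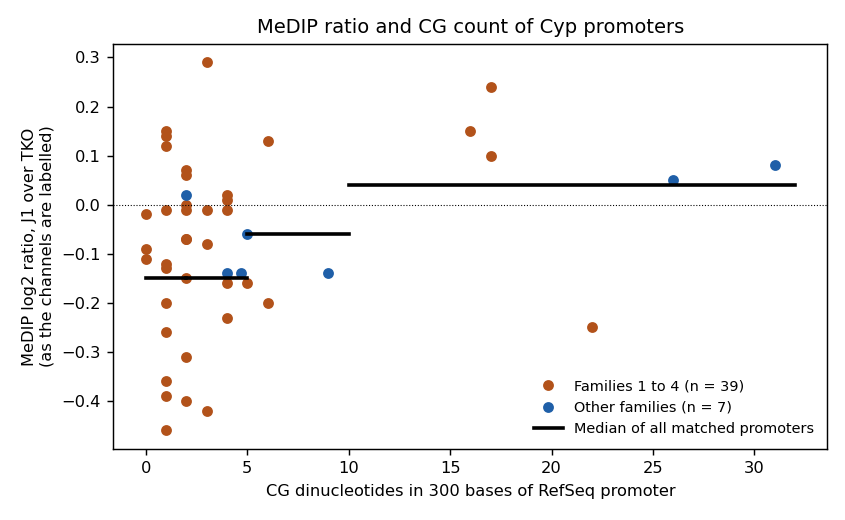
MeDIP log2 ratio, labelled J1 over labelled TKO (vertical axis), against the number of CG dinucleotides in 300 bases of RefSeq promoter (horizontal axis). Points are the 46 matched Cyp regions by family group, and black lines the medians of all matched promoters in 4 classes of CG count. The Cyp medians go from -0.08 in the class of up to 2 CG to 0.09 above 10 CG.

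Set side by side, RNA and promoter ratios of the same genes ran in no common order. Cyp11a1, with more RNA in TKO (0.57), had a promoter ratio of -0.14, and Cyp4f14 (0.28) one of 0.06. Of the genes with less RNA in TKO, Cyp4f13 (-0.45) had a promoter ratio of -0.20 ± 0.12 and Cyp39a1 (-0.26) one of 0.23. By RNA detection, the 22 promoter regions of genes above background on no array had a median of -0.15 and hold all 3 called regions. The 28 of genes above background on 1 or 2 arrays had a median of -0.04, and the 10 of measured genes -0.12. These are medians of different genes, with no test.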

How the data were processed

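The 3 expression arrays and the 7 + 7 MeDIP arrays are 2-colour Agilent scans. Their intensity values were written by Feature Extraction (8.5 per the submitters' processing notes, 8.5.1.1 or, on 2 RNA arrays, another version per the file headers), background-subtracted and dye-normalised, linearly for MeDIP and by LOWESS for RNA, per the file headers. The value tables that the authors deposited are on a log10 scale. For MeDIP they equal the scanner's red over green ratio, and for RNA they are the mean of 3 arrays with replicate 2 turned (r = 0.924 across genes with the log2 ratios computed here). Sources used here do not state how they were centred.

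RNA ratios were computed from mean signals with normexp (offset 50) and loess. Uneven and control spots were left out, the brightest probe of a gene was kept, and a line, J1 or TKO, had to be well above background on all 3 arrays. For MeDIP, log2(green/red) was taken from the processed signals, centred on each array's median, and averaged over the probes of a region. Both were tested against 0 with limma 3.58.1 in R 4.3.3, with Benjamini-Hochberg adjustment over all genes or regions. On the expression array, names of genes outside the Cyp set were updated through RefSeq. Cyp genes kept their array names, and 85 of 101 Cyp probes matched RefSeq. Promoter regions kept the names given on their arrays. Probe positions have no stated genome build, so only distances to the start are given. The fits were tested on simulated data. The number of arrays limits the precision.

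The members, lists and tests were chosen with earlier results of these data known. Named were every Cyp gene or region called, the 4 highest and 4 lowest beyond those, a fixed set of hormone, sterol, retinoid and pollutant enzymes, and of each list up to 3 calls with the largest change. An item that these rules select is not reported here. Other members named with values (Cyp2j6, Cyp2j9, Cyp2j13, Cyp4f16, Cyp27b1, Cyp2d22, Cyp2r1, Cyp2c54, Cyp2c37, Cyp2d9 and the promoter of Cyp2c44) were chosen after their values were seen. Alternatives covered background correction, centring, filters, a dye term, probe summaries and leaving out each array.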

Additional observations from a re-analysis of the deposited data

Results flagged for a closer look

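In 2 of the 64 Cyp promoter regions 1 array stood far from the other 6 by Dixon's criterion, which chance meets in about 1 in 20 groups. The promoter of Cyp8b1, the bile acid hydroxylase, had a MeDIP ratio of 0.7 on replicate 5, against -0.03 on the nearest array and a median of -0.12. The promoter of Cyp3a25, a liver enzyme of the Cyp3a cluster, had 0.2 on replicate 6, against 0.13 on the nearest array and a median of 0.11. Neither region was called.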

How the results depend on the processing

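RNA was limited by signal near background and by 3 arrays of unequal quality, and MeDIP by 1 dye orientation. With median centring the calls fell from 4071 to 1141 over all genes and from 4 to 1 among Cyp genes, and with a dye term the Cyp calls fell to 2. Leaving out 1 array gave 2047 to 3561 calls in all and 2 to 3 Cyp calls, with Cyp11a1 and Cyp4f13 kept each time. MeDIP calls numbered 394 over all regions as fitted, 17 with normexp, 178 with probes above background in both channels and 8222 at any size, and the Cyp calls went from 3 to 0 with normexp and to 37 at any size. With normexp, 16 Cyp regions below 0 (14.1% of all regions) and 7 above 0 (16.2%) had an adjusted p under 0.05 at any size (limma), and 20 (18.2%) and 11 (24.2%) an unadjusted one. The difference of medians between families 1 to 4 and the others was -0.11 ± 0.05 (SD) on part 1 with probes above background in both channels and 0.1 ± 0.17 on part 2 with normexp. Signs turned with median centring for Cyp20a1 (-0.13), Cyp26b1 (-0.08) and Cyp4x1 (0, just below it), and with normexp for Cyp2c40 (0.07). Leaving out 1 array turned Cyp20a1 (-0.03 to 0.16), Cyp26b1 (-0.03 to 0.1) and Cyp4x1 (-0.04 to 0.11, below 0 without replicate 2, at -0.01, or replicate 3). The causes were not tested. With the slide as a random block, only MeDIP part 2 could be fitted. No paired analysis was possible because no comparison is between groups of arrays: each array's ratio already pairs the lines, and the parts hold different promoters.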
